A study of Mus musculus with 4 samples.

Results

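The genes described here are the replication-dependent histone genes of the mouse, taken as the autosomal protein-coding genes of the GENCODE annotation of mm9 whose names begin with Hist1h, Hist2h or Hist3h. The rule found 66 genes among 21418 autosomal protein-coding genes. Of these, 55 were Hist1 genes on chromosome 13, 9 were Hist2 genes on chromosome 3 and 2 were Hist3 genes on chromosome 11. By product, 6 encode the linker histone H1, 19 encode H2A, 18 encode H2B, 11 encode H3 and 12 encode H4. H3K36me3, histone H3 trimethylated at lysine 36, was mapped by ChIP-seq in germ cells at 14 dpp from 2 strains. B6 is C57BL/6J. KI is B6.Cg-Prdm9<tm1.1Kpgn>/Kpgn, a knock-in on the B6 background in which the last exon of Prdm9, encoding the zinc fingers that choose the binding sites of PRDM9, comes from the CAST/EiJ allele. The input samples that served as background for peak calling carry a label of 15 dpp, and the antibody field of the ChIP samples reads H3K36me6 where the titles read H3K36me3. Cells are labelled spermatocytes, and the methods speak of isolated germ cells.

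In each strain 2 biological replicates were merged before the peak caller ZINBA was run, so each strain has 1 list of broad (unrefined) regions and 1 list of narrow (refined) peaks, and no value below has a replicate error or a p-value. The lists hold positions only, so the read depth behind a region is unknown. The merged KI reads were more numerous than the merged B6 reads, and depth and strain cannot be told apart in any difference between the lists. On the autosomes the lists held 50542 broad regions and 54236 refined peaks in B6, against 62557 and 68189 in KI. Broad regions were at least 2000 bp wide, with a median of 3000 bp in both strains, and together covered 17.2% of the autosomes in B6 and 16.5% in KI. All 6 germ cell markers examined (Ddx4, Dazl, Sycp1, Sycp3, Stra8 and Kit) lay in broad regions over 50% or more of the gene in both strains. Of all autosomal protein-coding genes, 43.2% did in B6 and 41.6% in KI. Of 10 markers of somatic testis cells, 2 did in B6 (Star and Wt1) and 1 in KI (Star). The coverage of several somatic markers was higher in B6 than in KI, at 71.7% against 8.49% for Wt1, 45.2% against 0% for Sox9 and 42.0% against 0.333% for Amh, while Acta2, Cyp17a1 and Hsd3b1 had none in either strain. Over all 10, 27.2% of the bases were covered in B6 and 9.55% in KI, against 38.9% and 35.9% over all genes. The germ cell markers were longer, with a median of 36579 bp against 9804 bp for the somatic ones. The part of the strain difference in somatic markers in the strain differences below was not tested.

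Histone mRNAs of this class are made mainly in S phase, when new chromatin is packed. Nearly all lack introns, and in place of a poly(A) tail their mRNAs end just past a short stem-loop that is bound by the stem-loop binding protein SLBP. H3K36me3 is placed along transcribed gene bodies by SETD2, which travels with elongating RNA polymerase II, and at recombination hotspots by PRDM9. Some members serve the male germ line, among them Hist1h1t, which encodes the testis linker histone H1t, and the divergently arranged Hist1h2aa and Hist1h2ba, which encode the testis variants of H2A and H2B.

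The stem-loop is the sequence that these genes share beyond their names, and it marks where the mature mRNA ends relative to the H3K36me3 regions. A match to the histone stem-loop consensus (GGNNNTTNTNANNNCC on the gene strand, in which N is any base) lay within 200 bp after the last coding base of 59 of the 66 genes, against 0.607% of all autosomal protein-coding genes with an annotated coding sequence. Within 200 bp of the annotated gene end, it was found in 48 members, against 0.775% of all genes. The 7 members without a match in either window were Hist2h2be, Hist2h2bb, Hist1h2an, Hist1h2bp, Hist1h2bq, Hist1h2br and Hist1h2al, which says only that these letters were not in the windows searched. The match began 25 to 62 bases after the last coding base, with a median of 35. The sequences of 7 members follow, chosen as the testis genes, the members that a broad region reached, and examples of an H1 and an H4 gene. Each is read 5′ to 3′ from mm9 on the gene strand, with the bases of the stem in capitals and 5 flanking bases on either side.
Hist1h1t: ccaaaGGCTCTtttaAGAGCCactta
Hist1h2aa: aaaaaGGCTCTtttcAGAGCCacctt
Hist1h2ba: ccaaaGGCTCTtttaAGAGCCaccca
Hist1h1c: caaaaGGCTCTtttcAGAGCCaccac
Hist1h4a: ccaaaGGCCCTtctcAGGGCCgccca
Hist2h3c1: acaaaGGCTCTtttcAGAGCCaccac
Hist3h2a: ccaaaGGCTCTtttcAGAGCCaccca

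Stem and loop lay at chr13:23788394-23788409 (plus strand) for Hist1h1t, chr13:24026760-24026775 (plus) for Hist1h2aa and chr13:24025599-24025614 (minus) for Hist1h2ba. They lay at chr13:23831381-23831396 (plus) for Hist1h1c and chr13:23852669-23852684 (minus) for Hist1h4a. For Hist2h3c1 the position was chr3:96051250-96051265 (plus) and for Hist3h2a chr11:58768674-58768689 (plus). Across the 59 genes there were 8 forms of the stem-loop, and 3 of them occurred in 1 gene each. The most frequent, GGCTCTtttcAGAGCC, was found in 36 genes, namely 5 of H1, 15 of H2A, 9 of H2B and 7 of H3. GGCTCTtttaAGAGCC, with an A closing the loop, was found in 9 genes that include Hist1h1t and Hist1h2ba. The 12 H4 genes used other stems. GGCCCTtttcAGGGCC was found in 7 of them, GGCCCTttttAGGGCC and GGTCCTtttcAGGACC in 2 each, and the form of Hist1h4a in 1. None of the 59 stem-loops lay in a broad region in B6, and 1, that of Hist3h2a, did in KI. Broad regions covered 17.2% of the autosomes in B6 and 16.5% in KI. The stem-loops lie in or next to the genes, so their count largely repeats the coverage of the genes given below.

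Broad H3K36me3 regions were nearly absent from the histone genes in both strains. A gene was called covered where at least 50% of its length lay in broad regions. In B6, 1 of 66 histone genes was covered, a share of 1.52% (Wilson 95% interval 0.268% to 8.10%, which reflects the number of genes and not the variation between animals), against 43.2% of all autosomal protein-coding genes. In KI the count was again 1 of 66, against 41.6% of all genes. The covered gene was Hist3h2a in both strains. At least 1 bp of a broad region was found in 1 histone gene in B6, where 60.7% of all genes had one, and in 2 in KI, where 62.5% did. In the remaining 64 genes, 97.0% of the group, no base lay in a broad region of either strain, whereas 33.9% of all genes were free in both. The median share of gene length covered was 0% for the histone genes in both strains, against 21.5% in B6 and 19.0% in KI over all genes. Counted in bases, 1176 of the 110339 bases of histone genes lay in broad regions in B6 (1.07%) and 2607 in KI (2.36%). Over all genes these shares were 38.9% and 35.9%.

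Few refined peaks fell in the histone genes. In B6 a refined peak overlapped 0 of 66 histone genes (Wilson interval 0% to 5.50%), against 52.6% of all genes. In KI refined peaks overlapped 2 (3.03%, interval 0.835% to 10.4%), against 55.0% of all genes. These were Hist3h2a and Hist2h3c1, and 1 peak touched each. Refined peaks were also rare in other genes of at most 1000 bp, overlapping 1.25% of them in B6 and 1.53% in KI, or 1.74% and 2.15% without Olfr and Vmn genes.

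**Figure D1:**
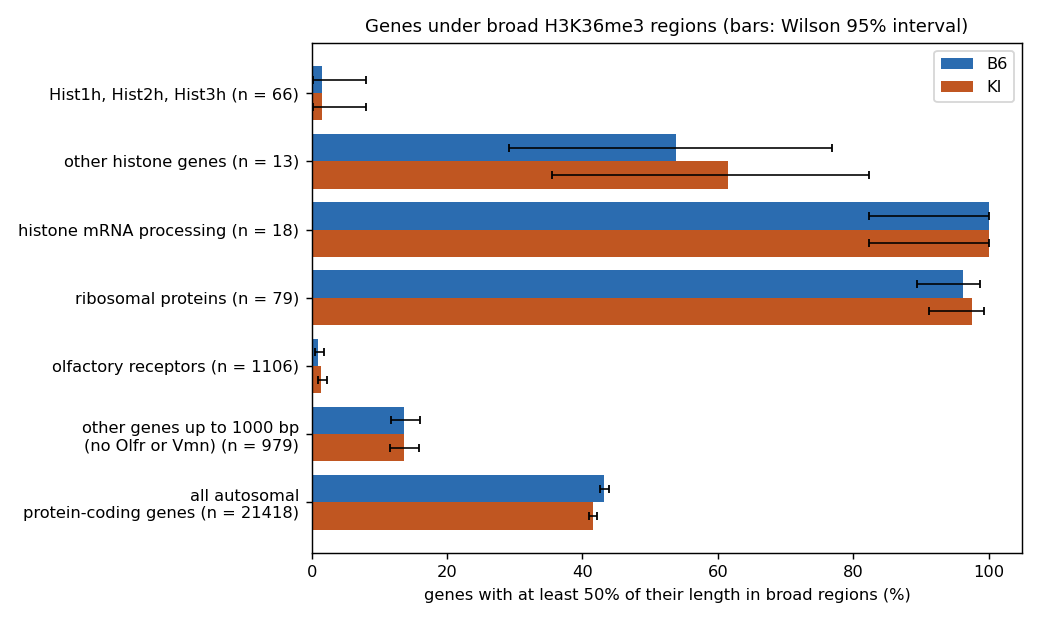
Percentage of genes (x axis) at which broad H3K36me3 regions take up 50% or more of the gene, in B6 (blue) and KI (orange), for 7 groups of genes with their number in brackets; error bars are Wilson 95% intervals. The histone genes of the Hist1, Hist2 and Hist3 clusters (median length 530 bp) stand at 1.52% in both strains, beside 100% for the genes that process histone mRNA (18004 bp). Other genes of at most 1000 bp, without Olfr and Vmn genes, stand at 13.7% in B6 and 13.6% in KI. Olfactory receptor genes stand at 0.995% and 1.45%.

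Hist3h2a, an H2A gene at chr11:58768187-58770176 on the plus strand, was the only member covered by a broad region. Its covered length was 59.1% in B6 and 84.2% in KI. The annotated gene is 1990 bp long and shares its first base with Trim17, a gene of the tripartite motif family at chr11:58768187-58786600 on which 57.6% of the length was covered in both strains. The broad region ran over chr11:58769001-58773000 in B6 and chr11:58768501-58772500 in KI, so that most of it lay downstream of the stem-loop. The covered share of the coding bases of Hist3h2a was 0% in B6 and 33.1% in KI. With coding bases in place of the gene body, a choice made after the data were seen, no histone gene was covered in either strain. The KI refined peak in the gene, at chr11:58769460-58769839, was 380 bp wide and lay in an intron of Trim17 as well. Reads from the overlapping bodies of Hist3h2a and Trim17 cannot be told apart. Its neighbour Hist3h2ba, an H2B gene, had no covered base, and its nearest broad region was 5.97 kb away in B6 and 4.91 kb away in KI.

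Hist2h3c1, an H3 gene at chr3:96049477-96052431 on the plus strand, was the other member reached by a broad region, and in KI only. Its covered length was 0% in B6, where the nearest broad region lay 1.57 kb away, and 31.5% in KI. The KI region, chr3:96051501-96053500, began downstream of the stem-loop and took in the annotated 3′ end, and the coding bases were covered to 0% in both strains. Only 47.0% of the 100-base sequences of Hist2h3c1 occur once in mm9. Its 5′ part overlaps Hist2h2aa1, in which none does. The unique share of the coding bases alone was not counted, so their missing coverage cannot be read as absence of the mark. The KI refined peak there spanned chr3:96052401-96052816 and was 416 bp wide, so that it overlapped the last bases of the annotated gene. B6 had neither a broad region nor a refined peak at these positions.

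None of the 12 H4 genes, 18 H2B genes or 6 H1 genes had a covered base in either strain, and of the H2A and H3 genes only Hist3h2a and Hist2h3c1 had one. The 3 testis genes were among those without a covered base. Hist1h1t lay 7.41 kb from the nearest broad region in B6 and 253 kb in KI. Hist1h2aa lay 43.3 kb away in B6 and 72.8 kb in KI, and Hist1h2ba 42.6 kb and 73.5 kb. The widest gene model of the group, the H2B gene Hist1h2be with 37383 bp, also had no covered base, with 83.0 kb to the nearest broad region in B6 and 141 kb in KI.

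The histone genes lay at varied distances from the nearest broad region. The median distance was 45.5 kb in B6 (interquartile range 15.5 to 79.9 kb) and 41.0 kb in KI (12.2 to 132 kb), and it was 0 over all genes in both strains. More than 30 kb separated 42 of the 66 genes from a broad region in B6 (63.6%) and 36 in KI (54.5%), against 20.4% and 17.0% of all genes. These distances were near those of other autosomal protein-coding genes of at most 1000 bp, for which the median was 49.7 kb in B6 and 38.8 kb in KI and 58.6% and 54.6% lay beyond 30 kb. The farthest were Hist1h3e, an H3 gene 138 kb from a B6 region, and Hist1h1c, a linker histone gene 267 kb from a KI region. Within Hist2, the identical H2A genes Hist2h2aa2 and Hist2h2aa1 were closest after Hist2h3c1, the former 1.64 kb away in both strains and the latter 3.96 kb away in B6 and 1.46 kb in KI. The H4 gene Hist2h4 lay 9.13 kb away in B6 and 12.1 kb in KI, and the H2B gene Hist2h2be 11.8 kb and 12.3 kb. Hist2h2ab and Hist2h2ac, both of H2A, lay 15.3 and 14.7 kb away in B6 and 15.8 and 15.2 kb in KI. The H3 gene Hist2h3b lay 16.1 kb and 19.1 kb away, and the H2B gene Hist2h2bb 17.1 kb and 16.6 kb. The families were spaced differently from broad regions. The median was 54.6 kb in B6 and 90.8 kb in KI for Hist1, 11.8 kb and 12.3 kb for Hist2, and 2.98 kb and 2.46 kb for the 2 Hist3 genes. By product the medians in B6 ranged from 41.6 kb for H2B to 53.4 kb for H1, and in KI from 15.8 kb for H2A to 211 kb for H1. Genes within a cluster share their surroundings, so these distances are not independent of each other.

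**Figure D2:**
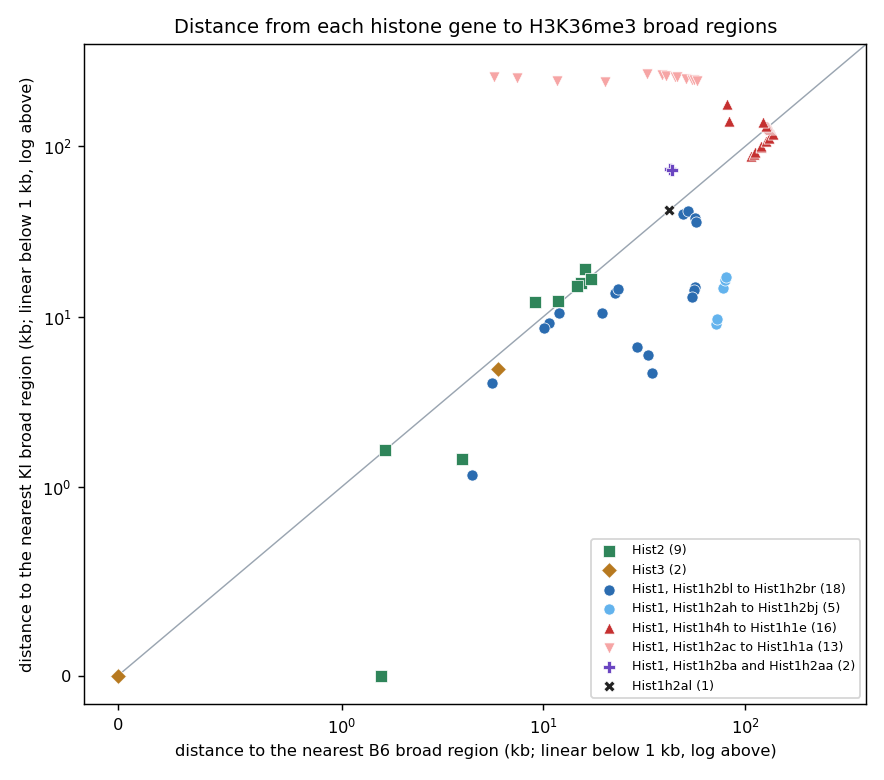
Distance of each of the 66 histone genes to the nearest broad region in B6 (x axis) and KI (y axis), in kb on axes that are linear below 1 kb and logarithmic above; symbols mark the stretch in which a gene lies and the line marks equal distances. The 13 genes from Hist1h2ac to Hist1h1a lie 5.68 to 57.5 kb from a B6 region and 238 to 267 kb from a KI region, and Hist2 genes stay within 19.1 kb in both strains.

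Neighbouring members no more than 50 kb apart were joined, which gave 8 stretches with a total length of 373 kb. Broad regions took up 10.7 kb of them in B6 (2.86%, 5 regions) and 14.7 kb in KI (3.93%, 6 regions). Over the autosomes they took up 17.2% in B6 and 16.5% in KI. Refined peaks numbered 4 in B6, or 10.7 per Mb against 21.9 per Mb over the autosomes. In KI there were 6, or 16.1 per Mb against 27.6 per Mb.

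The Hist2 stretch, 59.1 kb with 9 genes from Hist2h2ab to Hist2h2bb, had 8.46% of its bases covered in B6 and 6.77% in KI, while the 100 kb on either side of it were covered to 27.8% and 30.1%. The Hist3 stretch, 7.76 kb with 2 genes, was covered to 15.1% and 21.6%, and its flanks to 58.5% and 55.0%. In both, the flanks were thus more covered than the stretch itself. Flanks of the Hist1 stretches ranged from none covered to about the level of Hist2. From Hist1h2bl to Hist1h2br, 18 genes in 122 kb, coverage was 2.05% in B6 and 7.39% in KI, with 3.25% and 1.50% in the flanks. From Hist1h4h to Hist1h1e, 16 genes in 91.5 kb, coverage was 0% in both strains and 1% in the flanks. From Hist1h2ac to Hist1h1a, 13 genes in 82.9 kb, coverage was 2.41% in B6 and 0% in KI, and the flanks held no covered base in either strain. Other histone genes were not left out of the flanks, and those of the last 2 stretches reach into each other. In B6 the 1% beside Hist1h4h to Hist1h1e is the same region as the 2.41% within Hist1h2ac to Hist1h1a. The 5 genes from Hist1h2ah to Hist1h2bj, the testis pair Hist1h2ba and Hist1h2aa, and the isolated H2A gene Hist1h2al had no broad region within their stretches in either strain. In the flanks of the first, 8.50% of bases were covered in B6 and 11.5% in KI, and in those of the testis pair 7.50% and 2.25%. For Hist1h2al the flanks reached 27% in B6 and 26.8% in KI, with the nearest broad region 42.1 kb and 42.6 kb away.

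**Figure D3:**
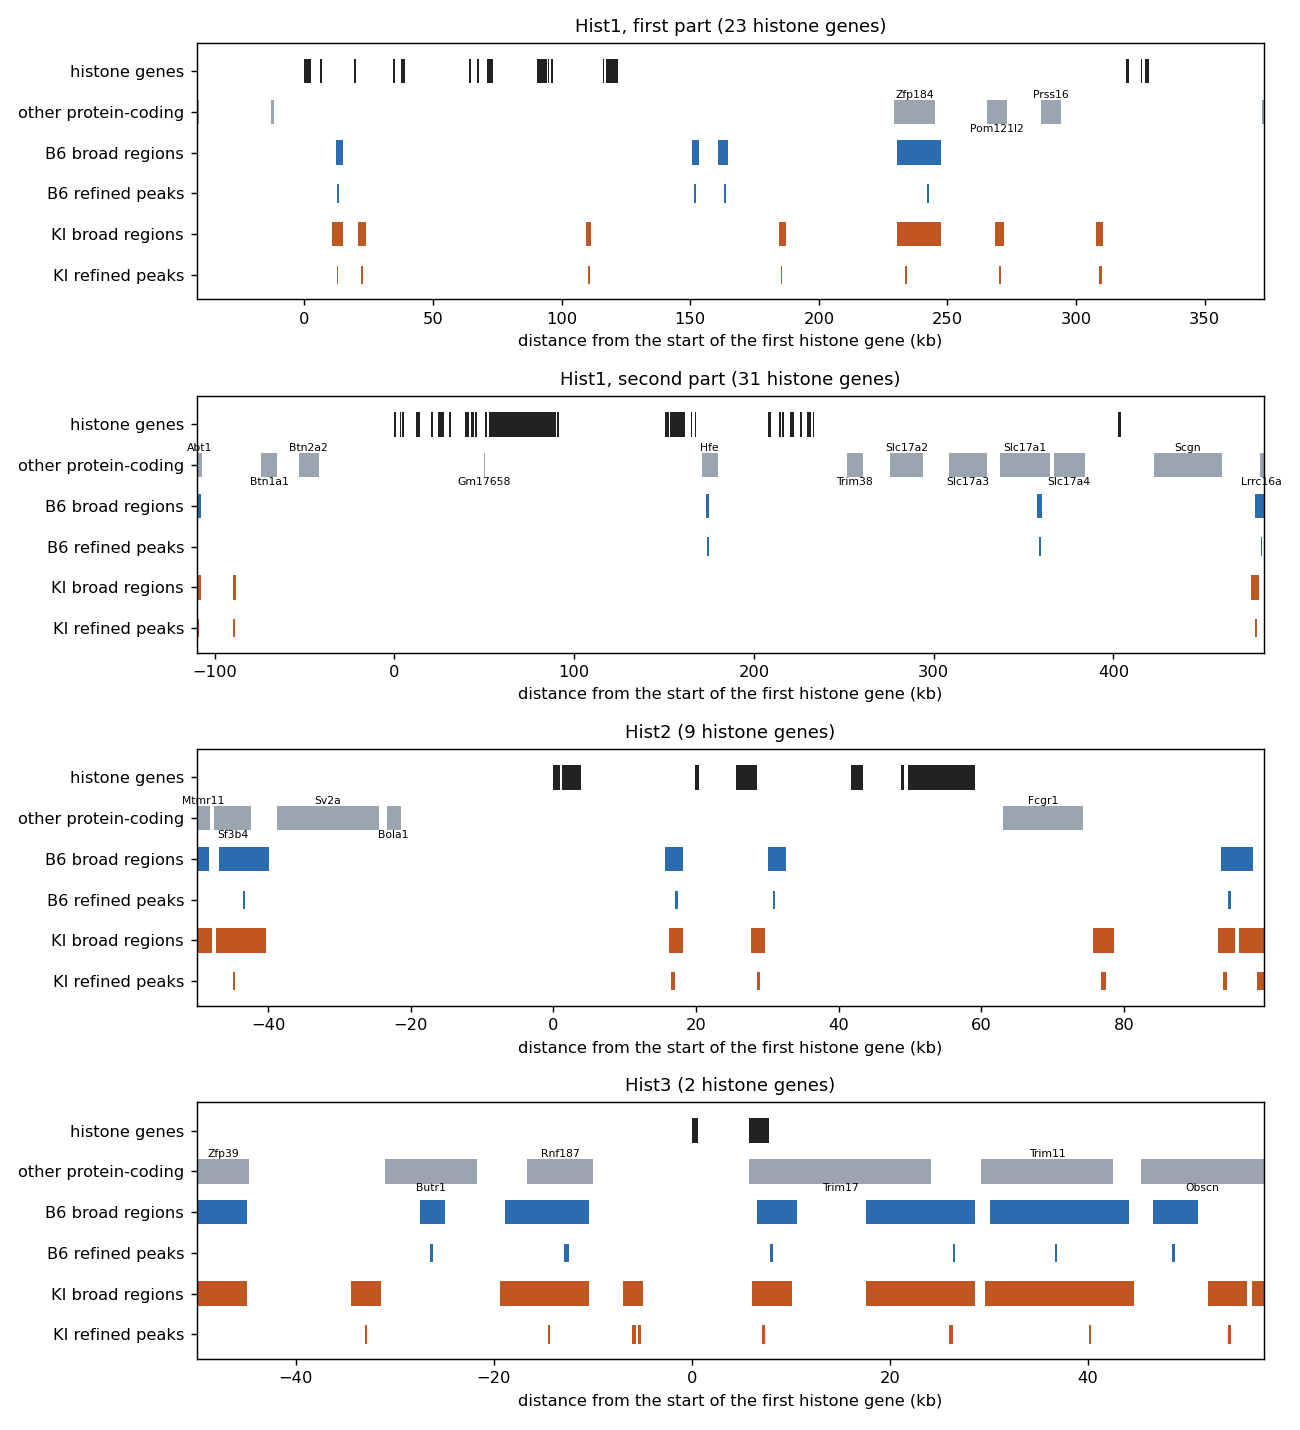
Map of the histone gene clusters, with position in kb from the start of the first histone gene of each panel (x axis) and rows for histone genes (black), other protein-coding genes (grey) and the broad regions and refined peaks of B6 (blue) and KI (orange); very short features are widened so that they can be seen, and Olfr and Vmn genes are unnamed. The isolated Hist1h2al is not drawn, and in the second part of Hist1 no KI broad region falls between the 31 histone genes.

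The gaps between the genes held most of the broad regions, and they made up 263 of the 373 kb of the stretches. There were 57 gaps of up to 50 kb, from 52 bp to 40.4 kb long with a median of 1.75 kb, and they added up to 263 kb. None was covered by at least 50% in either strain (0 of 57, Wilson interval 0% to 6.31%). A broad region reached 4 gaps in B6 and 5 in KI, filling 9.50 kb (3.61% of gap bases) and 12.1 kb (4.58%). The shares of all autosomal bases were 17.2% and 16.5%. Each gap so reached held 1 refined peak of that strain. The 22 gaps shorter than 1000 bp, which separate closely paired genes such as H2A and H2B pairs, were free of broad regions in both strains. This follows from the genes, since a region of at least 2000 bp in such a gap would also reach a neighbouring histone gene.

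In 2 gaps the strains shared a broad region. Between Hist1h2bm and Hist1h4j, a gap of 12.5 kb, the region was chr13:21820001-21822500 in B6 (20.1% of the gap) and chr13:21818501-21822500 in KI (32.1%). The refined peaks inside it, 418 bp in B6 and 727 bp in KI, had 396 bp in common. Between Hist2h2be and Hist2h2aa2 the region was chr3:96039501-96042000 in B6 (15.6%) and chr3:96040001-96042000 in KI (12.5%), and the refined peaks inside it, 469 bp and 575 bp wide, had only 15 bp in common. Neither gap holds another protein-coding gene.

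The other regions in gaps were found in 1 strain each. In B6 only, a broad region at chr13:23796001-23798000 lay between Hist1h4c and Hist1h1c in Hfe, a gene of iron homeostasis, with a refined peak of 273 bp in an intron. It was the nearest B6 region to all 13 genes from Hist1h2ac to Hist1h1a, and the KI list had no broad region in that stretch. Also in B6 only, chr3:96054001-96056500 lay between Hist2h3c1 and Hist2h4, where it filled 18.9% of the gap, with the KI-only region of Hist2h3c1 just upstream of it. In KI only, chr13:21828501-21831500 filled 20.4% of the gap from Hist1h4j to Hist1h4k. A second KI-only region, chr13:21917001-21919000, filled 10.2% of the gap from Hist1h4m to Hist1h4n, in which only 57.4% of the 100-base sequences occur once in the genome. With 1 pooled list per strain, whether these regions differ between strains beyond the variation between animals was not tested.

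The sequences of 4 of these refined peaks are given because they show where the H3K36me3 peaks among the histone genes lie and how far the strains shared them. All are from the plus strand of mm9, and capitals mark bases that lie in refined peaks of both strains. The first is a stretch of 300 bases from the shared peak between Hist1h2bm and Hist1h4j (chr13:21820566-21820865), the second 300 bases from the B6 peak between Hist2h2be and Hist2h2aa2 (chr3:96040923-96041222). The third is the B6-only peak in Hfe (chr13:23796809-23797081), the last the KI-only peak between Hist1h4j and Hist1h4k (chr13:21829859-21830121).
Hist1h2bm to Hist1h4j: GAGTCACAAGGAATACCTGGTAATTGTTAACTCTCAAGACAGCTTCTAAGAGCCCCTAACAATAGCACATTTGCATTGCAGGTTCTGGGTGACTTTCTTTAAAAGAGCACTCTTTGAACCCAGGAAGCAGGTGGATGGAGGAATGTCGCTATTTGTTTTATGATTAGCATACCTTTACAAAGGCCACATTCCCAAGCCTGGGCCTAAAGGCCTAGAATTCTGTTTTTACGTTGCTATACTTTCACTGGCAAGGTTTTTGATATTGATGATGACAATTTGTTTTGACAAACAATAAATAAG
Hist2h2be to Hist2h2aa2: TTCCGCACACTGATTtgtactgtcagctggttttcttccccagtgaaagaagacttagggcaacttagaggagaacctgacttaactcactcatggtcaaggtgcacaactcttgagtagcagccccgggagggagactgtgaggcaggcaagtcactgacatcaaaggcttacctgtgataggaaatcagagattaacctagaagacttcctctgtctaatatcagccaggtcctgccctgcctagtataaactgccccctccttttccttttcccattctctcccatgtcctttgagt
Hfe intron: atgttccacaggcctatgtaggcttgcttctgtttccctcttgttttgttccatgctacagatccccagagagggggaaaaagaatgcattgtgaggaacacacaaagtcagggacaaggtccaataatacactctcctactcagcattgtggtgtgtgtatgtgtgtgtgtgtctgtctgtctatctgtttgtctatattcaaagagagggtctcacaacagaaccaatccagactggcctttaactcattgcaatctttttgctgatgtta
Hist1h4j to Hist1h4k: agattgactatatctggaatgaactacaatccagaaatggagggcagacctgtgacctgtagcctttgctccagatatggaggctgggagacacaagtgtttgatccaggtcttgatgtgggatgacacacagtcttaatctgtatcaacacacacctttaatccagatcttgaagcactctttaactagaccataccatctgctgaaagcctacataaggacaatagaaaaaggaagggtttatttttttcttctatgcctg
In the first all bases are shared, in the second the shared bases are the 15 at its start, and the last 2 have none.

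The histone genes without a covered base lay in 11 stretches between neighbouring broad regions in each strain. These ranged from 12 kb (3 Hist2 genes) to 280500 bp in B6 and from 6 kb (Hist1h4j) to 564500 bp in KI, and the longest are described here because of their length and after they had been seen. In KI, chr13:23535001-24099500 held no broad region over 564500 bp and contained 41 protein-coding genes, of which 31 were histone genes. Among 46034 such stretches on the autosomes, whose median length was 8.50 kb with those that hold no gene included, it ranked 261 by length and 4 by the number of protein-coding genes. The 3 that ranked above it consisted mostly of olfactory or vomeronasal receptor genes (names beginning Olfr or Vmn). The same interval in B6 was broken by the region in Hfe and by another downstream. Its first piece there, chr13:23515501-23796000, was 280500 bp long with 23 genes, 20 of them histone genes, and ranked 28 by gene number and 1657 by length among 36878 stretches with a median of 7.50 kb. Of the 30 B6 stretches with at least 23 protein-coding genes, this piece included, only 16 consisted mostly of Olfr or Vmn genes. Next to the first piece lay pieces of 182500 bp with 9 histone genes and 118500 bp with 2. None of the stretches that hold histone genes contains an unsequenced base in mm9.

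**Figure D4:**
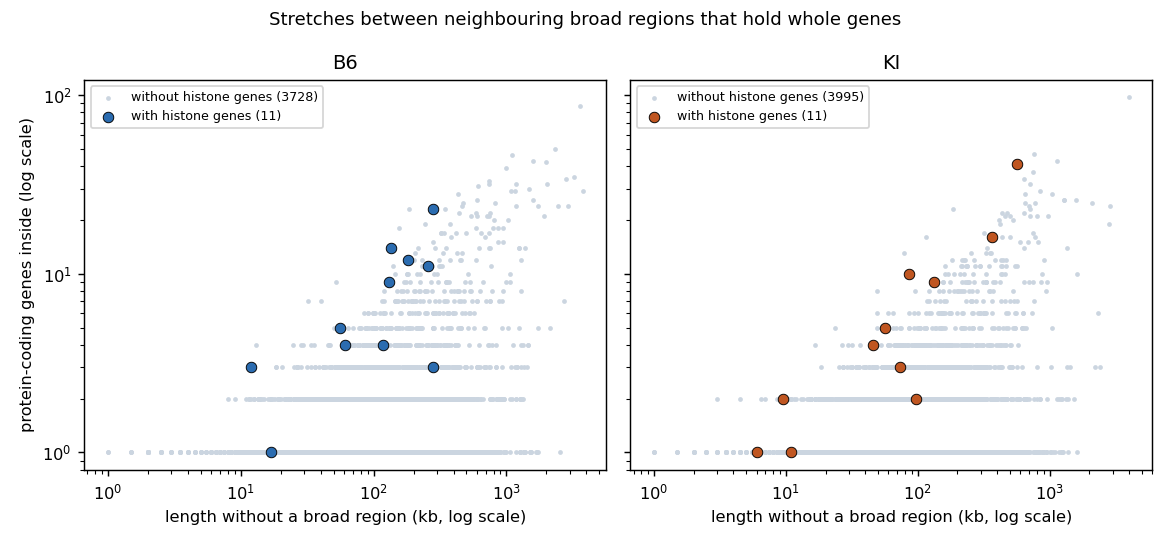
Stretches between neighbouring broad regions that contain at least 1 whole protein-coding gene, by length in kb (x axis) and number of such genes (y axis), both on log scales, in B6 (left) and KI (right); filled points contain histone genes, 11 in each strain. The KI stretch with 41 genes and the B6 stretch with 23 contain 31 and 20 histone genes.

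Other genes among the Hist1 clusters showed that broad regions were called in this part of chromosome 13. Between the outermost genes of the main Hist1 span lay 48 other protein-coding genes, 32 of them named Olfr or Vmn. Of all 48, 6 were covered in B6 and 6 in KI, where 43.2% and 41.6% of all autosomal protein-coding genes were. Those named Vmn were Vmn1r193 and Vmn1r204 in B6, and Vmn1r202, Vmn1r212 and Vmn1r213 in KI. Of the 16 not named Olfr or Vmn, 4 were covered in B6 and 3 in KI. Zfp184, a zinc finger gene, had 93.5% of its length covered in both strains. Zfp322a, also of that family, had 99.5% covered in B6 and 96.4% in KI. Abt1, a regulator of basal transcription, had 89.9% covered in both. The fourth in B6 was V1rh19, a vomeronasal receptor gene under an older name, with 100% covered in B6 and 0% in KI. Each of these lay in the longer gaps, outside the stretches of histone genes. Pom121l2, in the same long gap as Zfp184, had 0% covered in B6 and 46.4% in KI, with a KI refined peak. Among the genes around the 31 histone genes from Hist1h4h to Hist1h2aa, the covered length of Hfe was 22.7% in B6 and 0% in KI, and that of the phosphate transporter gene Slc17a1 was 8.93% and 0%. Btn1a1, Btn2a2, Trim38, Slc17a2, Slc17a3 and Slc17a4 had no covered base in either strain.

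Most histone genes are short. Their median length was 530 bp, and 50 of 66 were at most 1000 bp long, the width of the windows that the peak caller scanned. The part of gene length in the low coverage was not tested. Of the other autosomal protein-coding genes of at most 1000 bp, 1767 in number, 8.04% were covered in B6 and 8.04% in KI, and 88.5% had no covered base in either strain. Leaving out Olfr and Vmn genes, 979 remained with a median of 555 bp, of which 13.7% were covered in B6 and 13.6% in KI, and 81.7% had no covered base in either strain. The median distance of these 979 to a broad region was 22.2 kb in B6 and 16.5 kb in KI, shorter than that of the histone genes, whereas with the Olfr and Vmn genes included it was 49.7 kb and 38.8 kb. The share of untouched genes among the histone genes was nearer to that of olfactory receptor genes, 1106 in number, at 95.8%. No test compared these groups. The 16 histone genes longer than 1000 bp included both that a broad region reached.

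Genes that act on histone mRNAs, and histone genes outside the clusters, were examined as well. All 18 genes listed for histone mRNA processing were covered in both strains, with median coverages of 94.3% in B6 and 94.0% in KI. Slbp, whose product binds the stem-loop, was covered to 100% in both strains, and Npat, whose product drives histone transcription from histone locus bodies, to 99.1%. Lsm11, a component of the U7 snRNP that processes the 3′ ends, had 94.4% covered in B6 and 90.0% in KI. Of the 13 annotated histone genes outside the rule, 7 were covered in B6 and 8 in KI. These shares were 53.8% (Wilson interval 29.1% to 76.8%) and 61.5% (35.5% to 82.3%). The shares of all genes, 43.2% and 41.6%, lie within these intervals. Median lengths were 5299 bp for these genes and 18004 bp for the processing genes, against 530 bp for the clustered histone genes. The part of length in these contrasts was not tested. H2afx, encoding the H2A.X that is phosphorylated at DNA breaks, is 1357 bp long and was covered to 100% in both strains. H2afz, H3f3a and H3f3b, encoding replication-independent variants, were covered to 77.4%, 88.0% and 91.7% in B6. H1foo, the oocyte linker histone gene, had 0% of its length covered in B6 and 66.9% in KI. Hist4h4, an H4 gene of the same class that lies outside these clusters, H1fx and the testis linker gene H1fnt had no covered base in either strain. They are 312, 1061 and 1326 bp long. H2afj, 1827 bp long, had 5.20% of its length covered in B6 and 32.6% in KI. The ribosomal protein genes, which are highly expressed in dividing cells, had a median length of 3368 bp, and of 79 genes 96.2% were covered in B6 and 97.5% in KI.

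Histone genes resemble each other in sequence, and reads that did not align to a unique position were discarded before peaks were called. The share of each gene's 100-base sequences that occur once in mm9, on either strand and without mismatch, was therefore counted, 100 bases being the length of the reads. The median was 66.2% over the histone genes, and 45 of 66 were under 80%. Among other genes of at most 1000 bp with a value, 1741 in number, the median was 100% and 75.0% reached 80%. Hist2h2aa1 and Hist2h2aa2, Hist1h2bq and Hist1h2br, and Hist1h2ao and Hist1h2ap form pairs of identical sequence, and in these 6 genes no 100-base sequence is unique. Values of 0% coverage in them cannot be read as absence of the mark. The 6 H1 genes lay at the other end, with 91.5% to 100% unique sequence, and had no covered base.

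**Figure D5:**
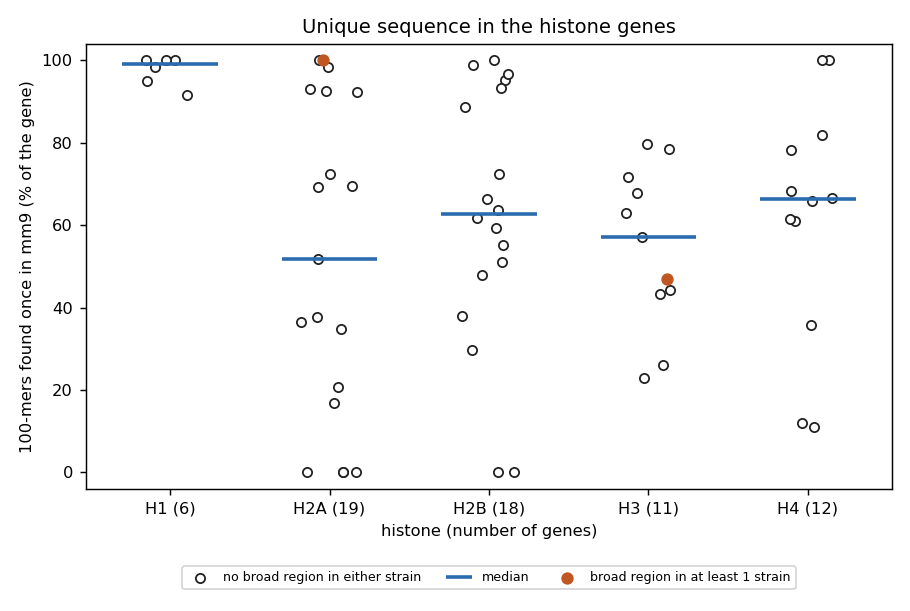
Share of each histone gene's 100-base sequences that occur once in mm9 (y axis, %), by the histone encoded (x axis, number of genes in brackets); open points are genes without a broad region in either strain, filled points those with one in at least 1 strain, and blue lines are medians. The 6 H1 genes lie between 91.5% and 100%, and 6 genes of H2A and H2B lie at 0%.

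Of the 21 histone genes with at least 80% unique sequence, a broad region touched 1 in each strain, again Hist3h2a. These 21 genes are of any length, and Hist3h2a is 1990 bp long, so they are not matched in length to the short genes that follow. Among other genes of at most 1000 bp, Olfr and Vmn genes included, a broad region touched 9.49% in B6 and 10.9% in KI of those with at least 80% unique sequence. Of those below 80% it touched 7.36% and 4.60%. The 8 histone genes that were unique throughout included Hist1h1t, Hist1h2aa and Hist1h1a, and only Hist3h2a among them had a covered base. The gaps between histone genes were unique over 89.0% of their 100-base sequences, and 3.61% of their bases were covered in B6 and 4.58% in KI.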

How the data were processed

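H3K36me3 ChIP-seq had been done by the authors on germ cells of B6 and KI at 14 dpp. They aligned reads of 100 bases to mm9 (BWA 1.2.3 in the submitters' processing notes), discarded reads without a unique position, merged 2 replicates per strain and ran ZINBA against the input of the strain, with windows of 1000 bp and an offset of 500 bp. The files deposited by the authors hold positions alone, namely the chromosome and the first and last base of a region, with no count or score. Positions were taken as 1-based and closed, and repeated broad regions were used once.

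Genes came from the GENCODE annotation of mm9. Overlaps were computed with Python 3.11.15, numpy 2.4.6 and pandas 2.3.3, Wilson 95% intervals with scipy 1.17.1 and unique 100-base sequences with numba 0.67.0. Coverage was checked with bedtools 2.31.1, which gave equal values in 132 of 132 comparisons, and the code was tested on simulated data. Broad regions that overlapped or touched were merged. Figures were drawn with matplotlib 3.10.9.

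All members could be named, and the rule gave the members reached by a region or peak, the 3 testis genes and the genes of Hist2 and Hist3. Other Hist1 genes named with a distance, such as Hist1h2be, Hist1h3e and Hist1h1c, were chosen after their values were seen, for the longest gene model or the largest distance. The members and lists were chosen with earlier results of these data known. H1f0, listed among the other histone genes, was not matched by name. Alternatives varied the coverage limit, the merging of regions, the gene ends, the length of gaps and the unique share. The use of coding bases and of the window after the last coding base was added after the data were seen.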

Additional observations from a re-analysis of the deposited data

How the results depend on the processing

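The share of histone genes covered depended on how much of a gene had to be covered: with 95% of the length required, or with coding bases only (chosen after seeing the data), it was 0% in both strains, since Hist3h2a no longer counted. Adding 500 bp on both sides of each gene changed the share of gene bases in broad regions to 0.950% in B6 and 2.05% in KI. For gap bases, gaps of up to 20 kb gave 3.80% in B6 and 6.11% in KI, and gaps without another protein-coding gene 3.44% and 5.53%. Gaps of any length gave 16.3% and 14.6%, which reversed the order of the strains and rested mainly on the 27271 kb between Hist1h2aa and Hist1h2al. With 1 bp in place of 50%, 7.02% of gaps counted in B6 and 8.77% in KI. The other 22 recomputed values stayed within the Wilson interval of the value reported. That interval reflects the number of genes, gaps or bases and not the variation between animals. It also takes neighbouring bases and clustered genes as independent, which they are not, and so is too narrow for shares of bases. Whether a value stayed within it is therefore no measure of robustness. Several of the 22 values could not have moved. They include those for covered gaps of up to 20 kb, as no gap was covered, and for a stricter refined overlap in B6, as no gene was overlapped. Among genes of at least 80% unique sequence the covered share was 4.76% in both strains. Asking for regions of at least 2000 bp changed nothing, as no region was shorter.

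No paired analysis was possible because each strain had 1 list made from merged replicates, and for the same reason no replicate was left out. The lists give no read number and the KI reads were deeper, so a gene without a region is a gene without a call at that depth. Under 80% of the sequence was unique in 45 of the 66 genes.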
